A study of Mus musculus with 10 samples.

Results

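The BTB adaptors described here are the mouse genes named Klhl, Kctd or Kbtbd followed by a number. They were chosen by platform symbol from probe sets (groups of probes for 1 transcript) that carry 1 gene symbol. Where a gene had several probe sets, the brightest on average stood for it. This gave 59 genes of 18194 on the array, with 33 Klhl, 17 Kctd and 9 Kbtbd genes, and 32 of the 59 had more than 1 probe set. Kctd12 is on a probe set shared with a microRNA gene and was left out.

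The study measured RNA from NG4 mouse embryonic stem cells on 10 Affymetrix arrays. Cells received siRNA by reverse transfection, were kept with retinoic acid, an inducer of differentiation, and were collected after 48 h. The RNA, 5 ng per array, was amplified before labelling. The 5 groups of 2 arrays are labelled siSocs3, siSox17, siFbxw7, siRnf31 and siNonTarget, the last being an siRNA with no target and the control of the other groups. All groups share the cell line, the transfection and retinoic acid, so no group here was kept without retinoic acid. NG4 is a single cell line, and the labels do not say whether replicates are separate cultures, so the spread behind each p-value is that between these samples only and could be technical.

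Cullin-3 ubiquitin ligases consist of the scaffold CUL3, the RING protein RBX1 and a BTB protein that serves as the substrate adaptor. The BTB domain binds CUL3, and a second domain, Kelch repeats in most KLHL and KBTBD proteins, binds the protein to be ubiquitylated. KCTD proteins are smaller, and some of them act at receptors or transcription factors without a known ligase role. In stem cells and embryos, such ligases have been tied to mitosis, vesicle transport, ribosome production and the fate of neural crest cells.

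Values are log2 of the RMA intensity (RMA is a method that corrects, normalizes and summarises probe signals), and a change of 1 is 2-fold. The siRNA targets themselves were not called in their own groups (adjusted p from 0.281 to 0.988). Against siNonTarget, Socs3 was 0.44 ± 0.24, Sox17 0.03 ± 0.53, Fbxw7 −0.25 ± 0.15 and Rnf31 −0.40 ± 0.17 (log2 change, SE, n = 2 arrays per group). These transcripts therefore do not check the labels, and every direction below rests on the labels, so siSocs3 means the arrays labelled siSocs3 throughout. Actin probes at the 3' end exceeded those at the 5' end by a log2 value of 0.60 on siFbxw7 replicate 1 and 0.50 on siNonTarget replicate 1, against 0.21 to 0.29 on the other 8 arrays. A larger excess can be a sign of less intact RNA. Cell identity markers were present, with Pou5f1 at 12.53 and 12.63 on the siSocs3 arrays and at 11.84 and 11.10 on the control arrays. Not all went that way. Lin28a read 9.90 and 10.11 in siSocs3 and 10.36 and 10.57 in siNonTarget, and Sox2 11.44 and 11.39 against 11.57 and 11.43. Of 9 fibroblast feeder markers, Col1a2 (7.997 to 9.62 over all arrays), Pdgfrb (8.62 to 9.32) and Twist1 (6.38 to 8.16) lay above the array medians throughout. Col1a1 (5.57 to 7.16) also lay above the median of its own array throughout, and Dcn ranged from 5.03 to 6.69. Thy1, Postn and Lum lay below the medians throughout. Col3a1 ranged from 4.93 to 8.35, with 6.81 and 7.33 in siSocs3 and 5.17 and 8.10 in siNonTarget.

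Of the 59 members, 36 (61.0%) were brighter than the median of all genes (7.002 on the log2 scale), each gene taken at its brightest probe set. Against the array medians of all probe sets (5.54 to 5.58), 42 members (71.2%) lay above and 17 below, where signals approach background and changes are compressed, and 64.8% of all genes lay above. Probe sets differ in how brightly they hybridise, so brightness does not rank transcripts of different genes. The brightest probe sets were those of Klhl13 (11.90), Klhl9 (10.58), Klhl22 (10.13), Kctd10 (9.85), Kbtbd2 (9.81) and Klhl26 (9.74). KLHL9, KLHL13 and KLHL22 act in mitosis in human cells, KLHL9 and KLHL13 on Aurora B and KLHL22 on PLK1. KCTD10 belongs to the adaptors that target RhoA, and KBTBD2 limits a regulatory subunit of PI3K in mouse insulin signalling. The dimmest were Klhl4 (2.89), Klhl33 (3.26), Klhl14 (3.31), Klhl41 (3.45), Kctd4 (3.53) and Kbtbd12 (3.53). Klhl41 is known from skeletal muscle.

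Most members differed little between the siRNA groups and siNonTarget. In the arrays labelled siSocs3, 37 of the 59 members differed from siNonTarget by less than 0.25 on the log2 scale, and 54 by less than 0.5. In siSox17 these counts were 39 and 52, in siFbxw7 46 and 56, and in siRnf31 52 and 59. The median change of the members was 0.0445 in siSocs3, −0.0036 in siSox17, −0.00123 in siFbxw7 and 0.00402 in siRnf31. Over all genes it was 0.0253, −0.0026, 0.000627 and −0.00349 in the same order of groups. The median size of the change, whatever its sign, was 0.172 in siSocs3 for members and 0.174 for all genes. In siSox17 it was 0.149 and 0.141, in siFbxw7 0.102 and 0.107, and in siRnf31 0.102 and 0.109. Between replicates, 0 members differed by 2-fold or more in any group. The largest replicate gaps were 0.54 (Klhl32, siSocs3), 0.57 (Klhl26, siSox17), 0.62 (Kctd15, siFbxw7), 0.57 (Klhl14, siRnf31) and 0.56 (Klhl21, siNonTarget).

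**Figure D1:**
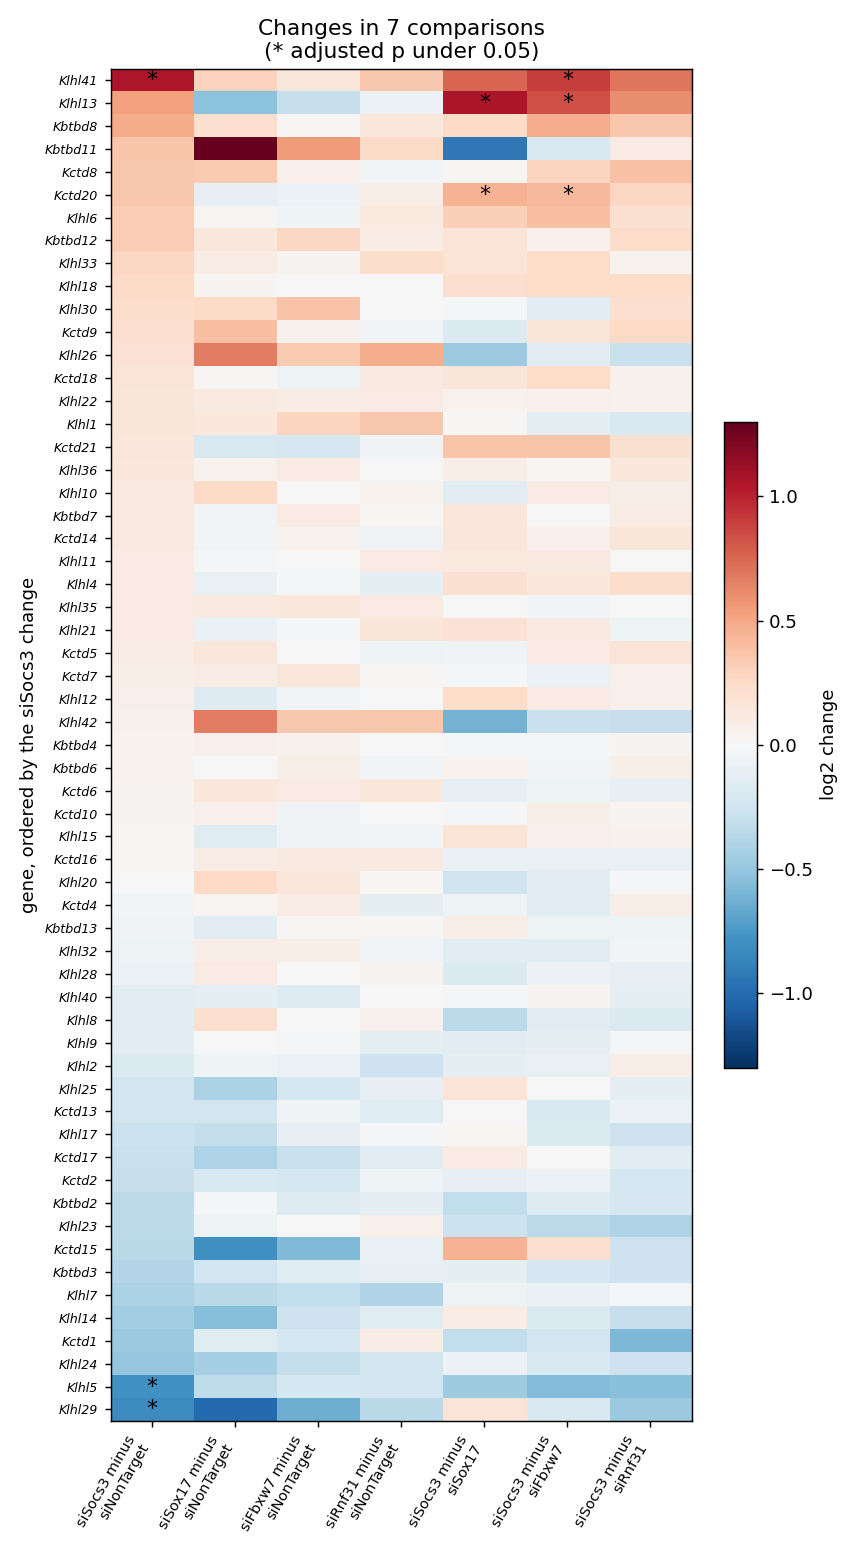
Log2 change of the 59 BTB adaptor genes (rows, ordered by the siSocs3 change) in 7 comparisons (columns), with red for higher and blue for lower in the group named first and an asterisk where the adjusted p is under 0.05. Most cells are pale, and 8 cells carry an asterisk, all of them in comparisons of siSocs3.

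In the arrays labelled siSocs3, Klhl41 rose against siNonTarget, and Klhl29 and Klhl5 fell. These 3 are 5.08% of the members, where 9.26% of all genes were called in this comparison (limma across all genes, adjusted p under 0.05), so the family was not called more often than other genes. By direction, 1 of 59 rose (3.59% of all genes) and 2 fell (5.66% of all genes). At an unadjusted p under 0.05 there were 14 members, against 26.2% of all genes. Removal of siFbxw7 replicate 1 and siNonTarget replicate 1, the arrays of high actin difference, was added once the data had been seen. It kept the call of Klhl29, lost those of Klhl41 and Klhl5 and added Klhl24 (−0.61, adjusted p = 0.0386), so 2 members were called, where 4.72% of all genes were. The arrays of both groups did not overlap for 36 members, 20 higher and 16 lower, where 57.2% of all genes did not overlap.

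Klhl41, whose protein stabilises sarcomere proteins in muscle and is mutated in human nemaline myopathy, read 4.06 and 4.21 on the siSocs3 arrays and 3.03 and 3.13 on the siNonTarget arrays. Both siSocs3 arrays were above every other array of the study, the highest of which was siRnf31 replicate 1 at 3.65. The change was 1.05 ± 0.18 (SE, n = 2 arrays per group, 2.07-fold, limma adjusted p = 0.0129). All these readings lie under the array medians, and the gene has 1 probe set, so no other probe set checks the rise. The call ended without siNonTarget replicate 1 (adjusted p = 0.0691), siSocs3 replicate 1 (0.0984) or siSocs3 replicate 2 (0.064), and without both arrays of high actin difference (0.0621). The size of the change stayed at 0.98 to 1.13 with 1 array left out and at 1.004 without both arrays of high actin difference. The other muscle genes of nemaline myopathy in the family, Klhl40 and Kbtbd13, were −0.13 and −0.05 and did not pass.

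Klhl29, a Kelch gene, read 4.42 and 4.82 on the siSocs3 arrays and 5.40 and 5.50 on the siNonTarget arrays. All its readings in the study lay under the array medians, where signals approach background. The groups did not overlap, and the change was −0.83 ± 0.15 (1.78-fold lower, limma adjusted p = 0.0148, n = 2 arrays per group). It also read below both controls on the arrays of the other groups, with 4.50 and 4.39 in siSox17, 4.97 and 4.66 in siFbxw7, and 5.12 and 5.09 in siRnf31. Against the same controls these were −1.01 ± 0.15 (adjusted p = 0.112), −0.64 ± 0.15 (0.752) and −0.35 ± 0.15 (0.778), none past the threshold. Because the 4 comparisons share both control arrays, they are not separate evidence. Klhl29 was the 1 member called by the F-test of any difference among the 5 groups (limma adjusted p = 0.043), where 1.87% of all genes were called. Leaving out either siNonTarget, siSox17, siSocs3 or siRnf31 array left 0 members called by the F-test. Klhl29 has 1 probe set, and its siSocs3 call ended without siSocs3 replicate 1 (adjusted p = 0.134), siNonTarget replicate 1 (0.0604) or siNonTarget replicate 2 (0.0521), with changes from −1.03 to −0.63 over all arrays left out in turn.

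Klhl5, a Kelch gene, read 7.89 and 8.17 on the siSocs3 arrays and 8.98 and 8.66 on the siNonTarget arrays. The 6 arrays of siSox17, siFbxw7 and siRnf31 were also above both siSocs3 arrays, at 8.42 to 8.76. The change was −0.79 ± 0.16 (1.73-fold lower, limma adjusted p = 0.019, n = 2 arrays per group). The second Klhl5 probe set, with a mean of 4.12, gave 0.38 ± 0.13 in the opposite direction (limma adjusted p = 0.114 over all probe sets), and the mean of both probe sets gave −0.21 (0.274). The call of the bright probe set ended without siNonTarget replicate 1 (adjusted p = 0.101) or siSocs3 replicate 1 (0.169), and without both arrays of high actin difference (0.057), with changes of −0.63, −0.65 and −0.63.

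**Figure D2:**
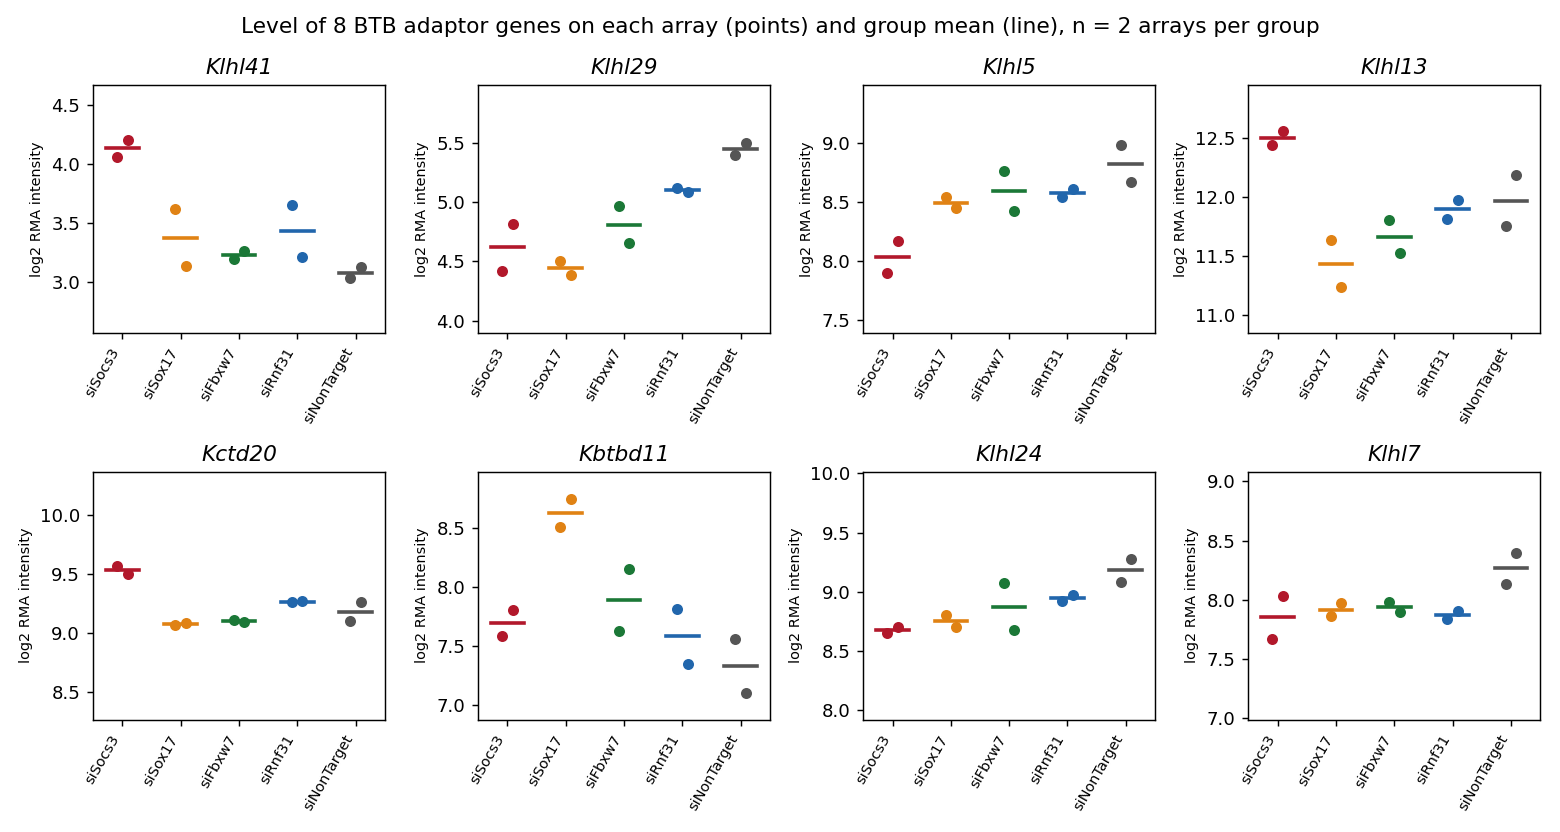
Log2 RMA intensity (vertical axes, each of the same span) of 8 BTB adaptor genes in the 5 siRNA groups, with a point per array and a line at the mean of the 2 arrays of a group. Both siSocs3 arrays are the highest of the study for Klhl41, Klhl13 and Kctd20 and the lowest for Klhl5, while Klhl29, Klhl24 and Klhl7 are highest on the 2 siNonTarget arrays.

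The promoters of these 3 genes and of Klhl13, described below, are shown to set the genes that changed beside their upstream sequence. Each line gives the 250 bases before the start that RefSeq places farthest upstream (build GRCm38.p6, 5′ to 3′ on the gene's strand). Capitals mark the GC box CCGCCC on either strand, a motif bound by SP and KLF factors. The Klhl41 promoter is at chr2:69669870-69670119 on the plus strand, Klhl29 at chr12:5375683-5375932 on the minus strand, Klhl5 at chr5:65107318-65107567 on the plus strand, and Klhl13 at chrX:23365083-23365332 on the minus strand.
Klhl41: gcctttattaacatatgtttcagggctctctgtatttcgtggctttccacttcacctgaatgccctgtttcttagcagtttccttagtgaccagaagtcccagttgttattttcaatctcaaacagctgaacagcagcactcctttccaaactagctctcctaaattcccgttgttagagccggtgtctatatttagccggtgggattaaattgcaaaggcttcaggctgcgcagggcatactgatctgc
Klhl29: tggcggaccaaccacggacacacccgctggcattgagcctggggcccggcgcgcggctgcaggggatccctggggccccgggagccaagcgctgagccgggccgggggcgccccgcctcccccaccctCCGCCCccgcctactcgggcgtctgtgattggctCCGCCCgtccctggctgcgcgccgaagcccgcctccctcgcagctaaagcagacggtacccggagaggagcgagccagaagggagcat
Klhl5: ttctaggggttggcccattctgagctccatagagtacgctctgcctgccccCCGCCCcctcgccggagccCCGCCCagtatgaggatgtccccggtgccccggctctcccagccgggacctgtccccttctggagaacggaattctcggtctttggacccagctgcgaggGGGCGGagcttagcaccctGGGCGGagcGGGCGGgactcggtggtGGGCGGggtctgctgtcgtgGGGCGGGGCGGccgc
Klhl13: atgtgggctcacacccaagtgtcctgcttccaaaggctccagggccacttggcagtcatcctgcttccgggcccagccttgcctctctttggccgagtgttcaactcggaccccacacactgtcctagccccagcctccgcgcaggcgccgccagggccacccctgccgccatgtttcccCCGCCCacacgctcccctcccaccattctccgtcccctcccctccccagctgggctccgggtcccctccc
The Klhl5 window holds 8 GC boxes, 2 of which overlap, the Klhl29 window holds 2, Klhl13 has 1 and Klhl41 has 0. The Klhl41 window is 45.2% G and C with 5 CpG sites, against 70.8% and 21 in Klhl5, 74.8% and 27 in Klhl29, and 68.4% and 12 in Klhl13. Klhl5 has 2 promoter entries and Klhl13 has 5, and the array does not say which start is used.

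Over the family, 46 of the 59 members had promoter entries, 65 in all. A GC box was present in 61.5% of the member promoters and in 32.7% of all 32851 promoters of the same length. All promoters here means the RefSeq entries of 27025 genes, not only those of the 18194 genes on the array. Member promoters had a median of 15 CpG sites and 60.4% G and C, and all promoters 6 and 52.4%. The part of base composition and of the gene set in the motif shares was not tested. The nuclear receptor half-site AGGTCA was present in 3.08% of member promoters and 14.0% of all, the STAT motif TTCNNNGAA in 6.15% and 7.02%, and the TATA motif TATAAA in 7.69% and 12.4%. Both strands were searched, a match is a description of letters only, and several entries of a gene can overlap.

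Other members with large siSocs3 estimates did not pass. Klhl24, mutated in a human skin-blistering disease through keratin 14, read 8.65 and 8.70 in siSocs3 and 9.08 and 9.28 in siNonTarget, a change of −0.51 ± 0.14 (limma adjusted p = 0.0527). All 5 of its probe sets were below 0, from −0.22 to −0.88. Kctd20 was 0.35 ± 0.10 (0.0542), but its other probe sets, of similar brightness (8.83 and 8.45), were −0.09 and −0.18. Kbtbd2 was −0.34 ± 0.10 (0.0695). Klhl13 was 0.53 ± 0.18 (0.102), and its second probe set was 0.87 ± 0.25 (0.0754 when adjusted over all probe sets). Kbtbd8, whose protein modifies the ribosome factors NOLC1 and TCOF1 in neural crest formation (shown in human cells and frog embryos), was 0.48 ± 0.17 (0.106). It read 9.22 and 9.30 in siSocs3 and 8.52 and 9.04 in siNonTarget, so the groups did not overlap, but the controls lay further from each other than the upper control from siSocs3. Klhl7 was −0.41 ± 0.14 (0.102), and its second probe set was −0.56 ± 0.12 (0.0276 when adjusted over all probe sets). Kctd1 was −0.48 ± 0.18 (0.137), Klhl14 −0.46 ± 0.19 (0.16), Kbtbd11 0.36 ± 0.23 (0.36) and Kctd8, an auxiliary subunit of GABA-B receptors, 0.35 ± 0.18 (0.245).

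**Figure D3:**
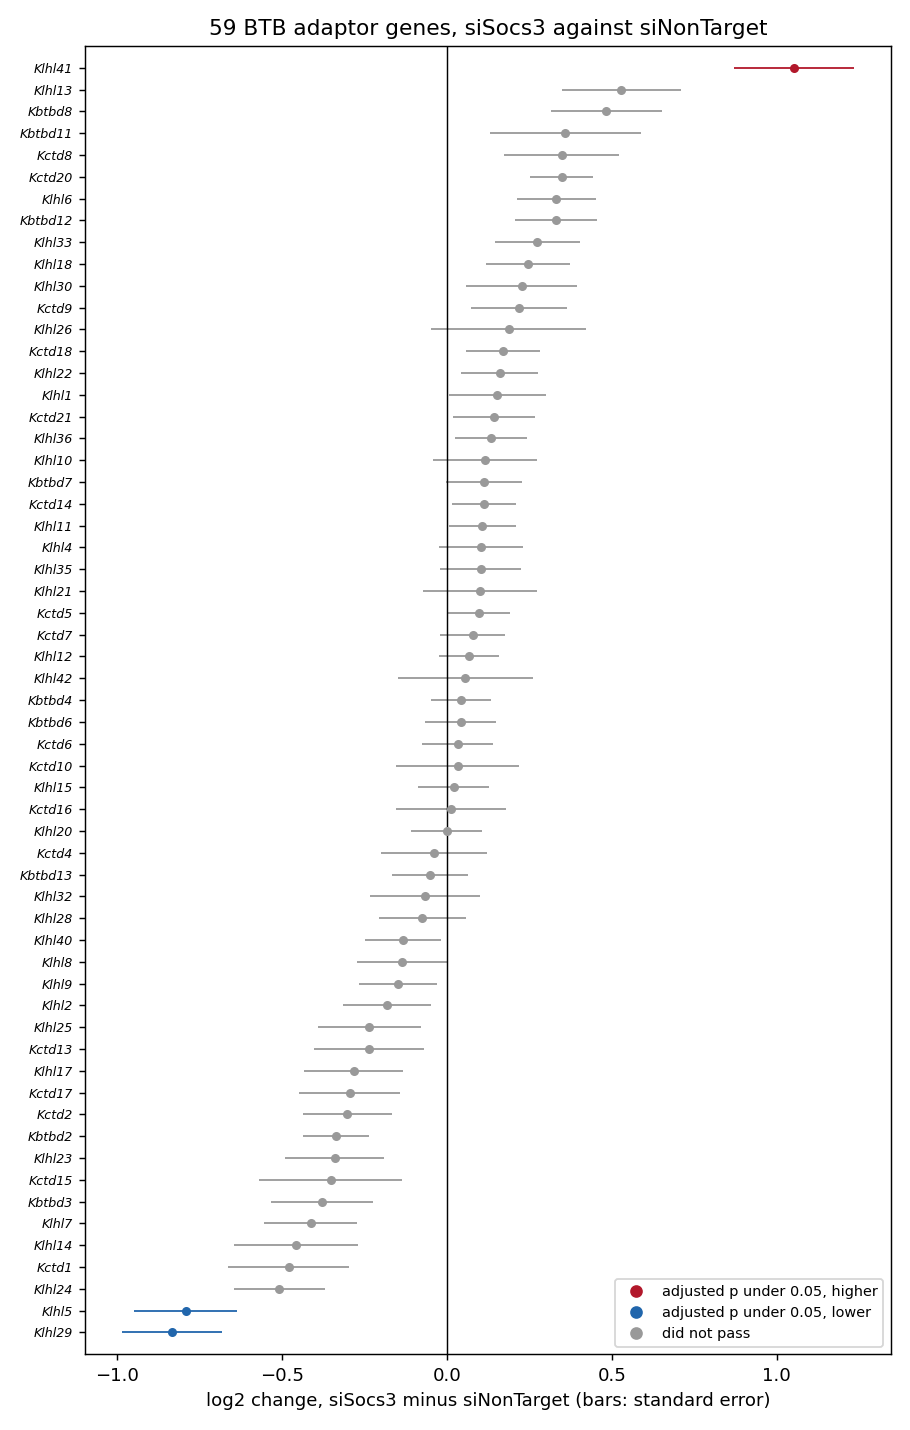
Log2 change of each of the 59 BTB adaptor genes in siSocs3 against siNonTarget (horizontal axis, points with standard errors of the limma model, n = 2 arrays per group). Klhl41 is the 1 gene past the threshold on the right, at 1.05, and Klhl29 and Klhl5 are past it on the left, at −0.83 and −0.79.

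Stem cell and differentiation markers moved in the same comparison, in which 3.59% of all genes rose and 5.66% fell. The marker lists were chosen with earlier results of these data known. Of 12 embryonic stem cell markers 6 rose in siSocs3 (Esrrb, Klf4, Nanog, Tdgf1, Utf1 and Zfp42) and 0 fell. Among those not called, Lin28a and Sox2 had lower means in siSocs3 and the others higher means. The mean log2 level of the 12 was 11.38 and 11.27 on the siSocs3 arrays and 10.42 and 10.32 on the siNonTarget arrays. Of 14 retinoic acid and neural markers 10 fell (Cyp26b1, Hoxb1, Map2, Meis1, Meis2, Ncam1, Nr2f1, Pax6, Rarb and Sox1) and 0 rose, with mean levels of 7.80 and 8.08 in siSocs3 and 9.46 and 9.20 in siNonTarget. The extraembryonic endoderm markers (Foxa2 of 10 fell) had mean levels of 7.09 and 7.31 in siSocs3 and 7.32 and 7.47 in siNonTarget. Fibroblast feeder markers (Col1a2 and Twist1 of 9 fell) had mean levels of 6.02 and 6.26 in siSocs3 and 6.09 and 6.65 in siNonTarget. No marker of these lists was at 0, since RMA gives every probe set a positive value, and the part of these cell states in the changes of the BTB adaptors was not tested. In bulk RNA, fewer cells of a type and less RNA per cell cannot be told apart.

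Set directly against the other targeted groups, siSocs3 arrays were higher in Klhl13, Kctd20 and Klhl41. Against siSox17, 2 of 59 members rose (3.39%) and 0 fell, where 1.64% of all genes rose, 0.967% fell and 2.61% were called in either direction. Against siFbxw7, 3 rose (5.08%) and 0 fell, where 2.09% of all genes rose, 1.41% fell and 3.51% were called in either direction. Against siRnf31, 0 members passed in limma, where 1.5% of all genes rose, 0.627% fell and 2.13% were called in either direction, and 7 had an unadjusted p under 0.05, against 16.9% of all genes. Groups did not overlap for 31 members against siSox17 (54.2% of all genes), 26 against siFbxw7 (49.6%) and 27 against siRnf31 (51.4%). These 3 comparisons share the siSocs3 arrays.

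Klhl13, an X-linked gene whose protein works with KLHL9 to move Aurora B off mitotic chromosomes in human cells, was the member with the largest difference between siSocs3 and siSox17. It read 12.44 and 12.56 on the siSocs3 arrays and 11.64 and 11.24 on the siSox17 arrays, a change of 1.06 ± 0.18 (2.09-fold, limma adjusted p = 0.0207, n = 2 arrays per group). Against siFbxw7, with 11.80 and 11.53, the change was 0.83 ± 0.18 (1.78-fold, adjusted p = 0.0425). The siRnf31 arrays read 11.82 and 11.98 and the siNonTarget arrays 11.76 and 12.19, so both siSocs3 arrays were the highest of the study. Against siNonTarget the estimates were 0.53 ± 0.18 in siSocs3 and −0.53 ± 0.18 in siSox17, and neither passed (adjusted p = 0.102 and 0.192). The second Klhl13 probe set gave larger differences of the same sign, 1.54 ± 0.25 against siSox17 (limma adjusted p = 0.0229 over all probe sets) and 1.35 ± 0.25 against siFbxw7 (0.0301). The call against siSox17 ended without siSox17 replicate 2 (adjusted p = 0.129), siSocs3 replicate 1 (0.141) or siSocs3 replicate 2 (0.103), with changes of 0.864, 1.12 and 1.002. The call against siFbxw7 held in 9 of 18 other settings. It ended without either siSocs3, siFbxw7 or siRnf31 array (changes of 0.70 to 0.97), without both arrays of high actin difference (0.97, adjusted p = 0.0602), with the replicate block (0.067) and in a fit of the 2 groups alone (0.0543).

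The other mitotic adaptors did not pass in that comparison. Klhl9 was −0.14 ± 0.12, Klhl21 0.19 ± 0.17 and Klhl22 0.04 ± 0.12 in siSocs3 against siSox17 (limma adjusted p = 0.586, 0.642 and 0.9). Klhl9 read 10.39 and 10.59 in siSocs3 and 10.69 and 10.58 in siSox17, and the groups overlapped.

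Kctd20, a KCTD gene, read 9.56 and 9.50 on the siSocs3 arrays, 9.07 and 9.09 on the siSox17 arrays and 9.11 and 9.09 on the siFbxw7 arrays. The change was 0.45 ± 0.10 against siSox17 (1.37-fold, limma adjusted p = 0.0438) and 0.43 ± 0.10 against siFbxw7 (1.34-fold, adjusted p = 0.0468), n = 2 arrays per group. Its other probe sets gave 0.32 and 0.14 against siSox17 and 0.16 and −0.02 against siFbxw7, and none of these passed. The calls held in 7 and 5 of 18 other settings, and ended whenever a siSocs3, siSox17, siFbxw7 or siRnf31 array was left out, with changes of 0.39 to 0.49. Both also ended with the replicate block, in a fit of the 2 groups alone and with the mean of the probe sets, and the one against siFbxw7 with quantile normalization and without both arrays of high actin difference. Klhl41 was higher by 0.90 ± 0.18 against siFbxw7 (1.87-fold, adjusted p = 0.0324), with 4.06 and 4.21 in siSocs3 and 3.20 and 3.26 in siFbxw7. That call ended without either siSocs3 or either siFbxw7 array (changes of 0.83 to 0.98), and without both arrays of high actin difference (0.87, adjusted p = 0.177). Against siSox17 Klhl41 was 0.76 ± 0.18 and against siRnf31 0.70 ± 0.18, neither past the threshold (adjusted p = 0.0705 and 0.0945).

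No member fell in these 3 comparisons in the fit of all arrays. Kbtbd11 was called lower in siSocs3 than in siSox17 in a fit of those 2 groups alone (−0.93, limma adjusted p = 0.0187; 4.84% of all genes called) and without both arrays of high actin difference (0.0344; 4.07%). Kbtbd11 has 4 probe sets, and their mean gave only −0.23 in siSocs3 against siSox17 (limma adjusted p = 0.371). The estimates farthest below 0 against siSox17 were, in the fit of all arrays, Kbtbd11 (−0.93 ± 0.23, limma adjusted p = 0.0736), Klhl42 (−0.61 ± 0.20), Klhl26 (−0.47 ± 0.23), Klhl5 (−0.46 ± 0.16) and Klhl8 (−0.34 ± 0.14). Kctd15 (0.45 ± 0.22) and Kctd21 (0.36 ± 0.12) were next above 0 after the genes already given. Against siFbxw7 they were Klhl5 (−0.56 ± 0.16), Klhl23 (−0.34 ± 0.15), Klhl42 (−0.29 ± 0.20), Kctd1 (−0.25 ± 0.18) and Kbtbd3 (−0.22 ± 0.15) below 0, and Kbtbd8 (0.47 ± 0.17) and Klhl6 (0.39 ± 0.12) above it. Against siRnf31 they were Kctd1 (−0.58 ± 0.18), Klhl5 (−0.54 ± 0.16), Klhl29 (−0.49 ± 0.15), Klhl23 (−0.40 ± 0.15) and Klhl14 (−0.30 ± 0.19) below 0. Above 0, after Klhl41 and Klhl13 (0.60 ± 0.18), were Kctd8 (0.39 ± 0.18), Kbtbd8 (0.35 ± 0.17) and Kctd20 (0.26 ± 0.10). Of the cell markers, 0 of 12 stem cell and 0 of 14 differentiation markers were called against siSox17, while Nanog and Tdgf1 rose and Cyp26b1, Map2, Meis2 and Rarb fell against siFbxw7, as did the endoderm genes Col4a1 and Foxa2. Against siRnf31, Nanog rose and 0 differentiation markers were called. The shares of all genes called in these 3 comparisons are given above.

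**Figure D4:**
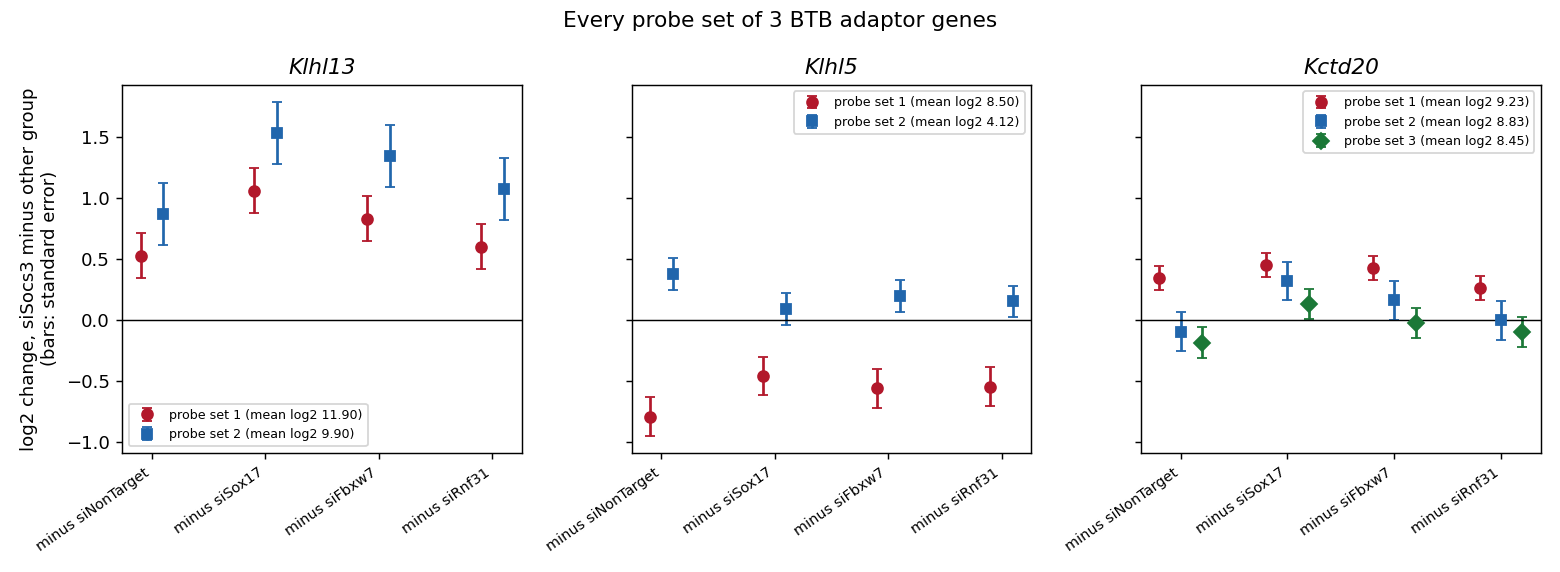
Log2 change in siSocs3 against each other group (vertical axis, with standard errors) for every probe set of Klhl13, Klhl5 and Kctd20, numbered from the brightest. Both Klhl13 probe sets lie above 0 in all 4 comparisons, the 2 Klhl5 probe sets lie on opposite sides of 0, and the 3 Kctd20 probe sets spread around 0 except against siSox17.

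In the arrays labelled siSox17, 0 of 59 members passed against siNonTarget in limma, where 0.0055% of all genes were called. At an unadjusted p under 0.05 there were 13 members, against 17.3% of all genes, and the groups did not overlap for 32 members, against 48.2% of all genes. Kbtbd11, a Kelch gene studied in mouse fat cells, had the largest estimate of the family in any comparison, on the brightest of its 4 probe sets. In siSocs3 against siSox17, that probe set gave −0.93 and the mean of all 4 gave −0.23. Kbtbd11 read 8.51 and 8.75 on the siSox17 arrays, above all other arrays, and 7.57 and 7.11 on the siNonTarget arrays. The change was 1.29 ± 0.23 (2.45-fold, limma adjusted p = 0.131, n = 2 arrays per group). A fit of these 2 groups alone called Kbtbd11 (adjusted p = 0.0447) and Klhl29 (0.0299), which is 2 of 59 members where 1.4% of all genes were called in that fit. Kctd15, whose protein inhibits the transcription factor AP-2 alpha in zebrafish neural crest, read 8.28 and 8.18 in siSox17 and 8.82 and 9.25 in siNonTarget (−0.80 ± 0.22, adjusted p = 0.154). Klhl42, linked to the microtubule-severing protein katanin, read 8.87 and 8.58 in siSox17 and 7.88 and 8.23 in siNonTarget (0.67 ± 0.20, 0.167). Klhl26 was 0.66 ± 0.23, Kctd9 0.40 ± 0.15, Kctd8 0.34 ± 0.18, Klhl14 −0.55 ± 0.19 and Klhl24 −0.43 ± 0.14, none past the threshold (adjusted p from 0.175 to 0.366).

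In siFbxw7 and in siRnf31, 0 members passed in limma, where 0% of all genes were called in both. At an unadjusted p under 0.05 there were 4 members in siFbxw7 (6.45% of all genes) and 3 in siRnf31 (5.87%). Groups did not overlap for 22 members in siFbxw7 (33% of all genes) and 13 in siRnf31 (35.2%). The largest siFbxw7 estimates were Klhl29 (−0.64 ± 0.15), Kctd15 (−0.57 ± 0.22), Klhl7 (−0.32 ± 0.14), Klhl24 (−0.31 ± 0.14) and Klhl13 (−0.30 ± 0.18) below 0, and Kbtbd11 (0.55 ± 0.23), Klhl30 (0.37 ± 0.17), Klhl42 (0.35 ± 0.20), Klhl26 (0.34 ± 0.23) and Klhl1 (0.28 ± 0.15) above it. Kctd15 read 8.77 and 8.15 on the siFbxw7 arrays, further apart than its change. In siRnf31 the largest were Klhl7 (−0.39 ± 0.14), Klhl29 (−0.35 ± 0.15), Klhl2 (−0.26 ± 0.13), Klhl5 (−0.25 ± 0.16) and Klhl24 (−0.23 ± 0.14) below 0. Above 0 they were Klhl26 (0.47 ± 0.23), Klhl1 (0.35 ± 0.15), Klhl42 (0.35 ± 0.20), Klhl41 (0.35 ± 0.18) and Kbtbd11 (0.25 ± 0.23). KLHL2 directs degradation of WNK kinases, which control salt transport, and Klhl7 is mutated in a human form of retinitis pigmentosa.

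On all 8 arrays of the targeted siRNAs, 3 members (Klhl29, Klhl24 and Klhl7) read below both siNonTarget arrays, and 1 member (Klhl41) read above both. Among all genes 4.68% were below and 3.69% above on all 8 arrays, so these counts are near the background. Klhl7 read 7.67 to 8.03 on the targeted arrays and 8.13 and 8.40 on the siNonTarget arrays.

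Members grouped by known role were also set against siNonTarget in siSocs3. The RhoA adaptors Kctd10 and Kctd13 were 0.03 and −0.24. Kctd6 and Kctd21, which oppose Hedgehog signalling by way of HDAC1, were 0.03 and 0.14. Kctd8 and Kctd16, the GABA-B receptor subunits, were 0.35 and 0.01. Kctd5, which limits G protein beta-gamma, and its relatives Kctd2 and Kctd17 were 0.10, −0.30 and −0.29. The second Kctd5 probe set, with a mean of 8.90, was 0.42 ± 0.13 (limma adjusted p = 0.0939 over all probe sets). The AP-2 inhibitors Kctd1 and Kctd15 were −0.48 and −0.35. Klhl12, an adaptor for the vesicle coat protein SEC31, was 0.07. Kbtbd6 and Kbtbd7, which act together on the RAC1 activator TIAM1 and are chromosomal neighbours, were 0.04 and 0.11. None of these genes passed.

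The shared core of the ligase did not pass either. Cul3 read 11.12 and 11.12 on the siSocs3 arrays and 10.84 and 11.01 on the siNonTarget arrays (0.20 ± 0.10, limma adjusted p = 0.24). Rbx1 was 0.24 ± 0.23 and Nedd8, the ubiquitin-like modifier that activates cullins, 0.07 ± 0.12. Of 24 measured genes of the core, the neddylation enzymes and the COP9 signalosome, 0 were called in any of the 4 comparisons with siNonTarget. Of all genes, 9.26% were called in siSocs3, 0.0055% in siSox17 and 0% in siFbxw7 and siRnf31. Cand1, the exchange factor of cullin adaptors, rose in siSocs3 against siSox17 (0.49 ± 0.10, adjusted p = 0.0391), with 11.39 and 11.49 in siSocs3 and 10.90 and 10.99 in siSox17. Of 7 other cullins, Cul5, the scaffold used by SOCS box proteins, rose in siSocs3 (0.89 ± 0.19, adjusted p = 0.0263), with 9.27 and 9.87 in siSocs3 and 8.52 and 8.83 in siNonTarget. Cul4a fell (−0.58 ± 0.10, adjusted p = 0.0129), with 7.94 and 8.05 in siSocs3 and 8.51 and 8.64 in siNonTarget. These are 1 higher and 1 lower of 7, where 3.59% of all genes rose and 5.66% fell. Against siFbxw7 Cul5 rose by 0.95 ± 0.19 and Cul4a fell by 0.51 on the log2 scale (adjusted p = 0.0339 and 0.0291). There, 2.09% of all genes rose and 1.41% fell.

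Among 25 BTB genes with other names, 4 fell and 0 rose in siSocs3 against siNonTarget, with a median of −0.21. Of all genes, 5.66% fell and 3.59% rose, and the list was chosen with earlier results of these data known. Zbtb16, the transcription factor PLZF, read 5.40 and 5.66 in siSocs3 and 8.74 and 7.70 in siNonTarget (−2.68 ± 0.66, limma adjusted p = 0.0376), with the control arrays far apart. Rhobtb3 was −1.25 ± 0.20 (0.0104), Rcbtb2 −0.82 ± 0.18 (0.0256) and Btbd3, which steers dendrites in mouse cortex, −0.62 ± 0.14 (0.0297). Keap1, the adaptor of the stress factor NRF2, was 0.02 ± 0.12, Spop −0.27 ± 0.11 and the RhoA adaptor Tnfaip1 −0.05 ± 0.13, none past the threshold. Of 33 measured substrates and partners, 1 was called, where 9.26% of all genes were called in either direction. Dapk1, a death-associated kinase and KLHL20 substrate, fell (−0.75 ± 0.15, adjusted p = 0.02), with 8.43 and 8.66 in siSocs3 and 9.47 and 9.13 in siNonTarget. It also fell against siSox17 (−0.78 ± 0.15, 0.0341) and siFbxw7 (−0.76 ± 0.15, 0.0304). In siSox17, siFbxw7 and siRnf31 against siNonTarget, 0 genes of these lists were called, where 0.0055%, 0% and 0% of all genes were. Klhl20 itself was −0.000418 ± 0.11 in siSocs3 against siNonTarget.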

How the data were processed

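Total RNA of 10 samples was amplified, labelled and hybridised to Affymetrix mouse arrays, 1 sample per array. The deposited intensity values are on a linear scale (5.05 to 31606.3) and were made by the authors with RMA, per the submitters' processing notes; the sources used here do not name its version. RMA sets all arrays to 1 distribution, so a shift of most genes in 1 direction would not be seen. Of 45101 probe sets, 34958 carry 1 gene symbol, 932 several and 9211 are unlisted here; 34754 had gene IDs matched in RefSeq (GRCm38.p6). Values were taken to log2 with no pseudocount, and each gene kept its probe set of highest mean (18194 genes).

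All 5 groups were fitted in limma 3.58.1 (R 4.3.3; lmFit and eBayes, 5 residual degrees of freedom), with 7 contrasts and an F-test, and p-values were adjusted by Benjamini-Hochberg over all genes at 0.05. Probe sets were also fitted singly. The number of arrays limits the precision. Figures were drawn with matplotlib 3.10.9. The fit was also run on simulated data with independent normal noise of the fitted spread. Such data hold no batch, RNA quality or probe set effects, so they do not check the calls against these. Alternatives were median centring, quantile normalization, a replicate block, a trended prior, averaging of probe sets, a fit of only the groups compared, a filter removing the dimmest 30% of genes, and removal of each array in turn. Between groups, the deviations of arrays with the same replicate number correlated from −0.26 to 0.42, the highest being siNonTarget with siFbxw7. These values do not settle whether replicate numbers pair samples.

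The members, gene lists and roles were chosen with earlier results of these data known. Named are members called in any contrast or by the F-test, and the 5 largest estimates each way per contrast. The 6 brightest and 6 dimmest members, the 4 targeted genes, Cul3, Rbx1 and Nedd8 are also named. So are called genes of the lists and called members whose probe sets disagree in sign. The last are the 5 genes most like the member of largest called change against siNonTarget (Klhl41). Members named by role were added.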

Additional observations from a re-analysis of the deposited data

How the results depend on the processing

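The counts of called members against siNonTarget were 0 under every alternative in siFbxw7 and siRnf31, as was the count for siSocs3 against siRnf31. In siSocs3 against siNonTarget, leaving out each array gave 0 to 4 members, with 0 without siNonTarget replicate 1 or siSocs3 replicate 1, and the other alternatives gave 2 to 4. In siSox17 against siNonTarget a fit of those groups alone called 2, and leaving out each array gave 0 to 2. With the replicate number as a block, which is not known to pair samples, 3 members were called in siSocs3 against siNonTarget, 1 against siSox17, 1 against siFbxw7 and 0 by the F-test. Against siSox17 the mean of all probe sets called 1, the fit without both arrays of high actin difference 3 (Kbtbd11, lower, was added), and leaving out each array 0 to 2. Against siFbxw7 the groups alone called 1, the fit without both arrays of high actin difference (chosen after seeing the data) called 0, and leaving out each array 0 to 3. The F-test called 0 without the dimmest 30% of genes and 0 to 2 with each array left out. Among the called results, the sign turned for Klhl5 on its second probe set (0.38 against siNonTarget) and for Kctd20 on its dimmest (−0.021 against siFbxw7). Called or not, 14 of the 32 members with several probe sets had mixed signs in siSocs3 against siNonTarget. In the other comparisons 12 to 19 of 32 did, so family counts and medians rest on the choice of probe set, and the cause was not tested. Klhl24, with an adjusted p of 0.0527 in siSocs3 against siNonTarget, passed in 5 alternatives. In the same comparison, Kctd20 passed with median centring, quantile normalization and the filter on dim genes. Klhl7 passed there with the mean of all probe sets (−0.49, limma adjusted p = 0.0408). Without siNonTarget replicate 2, the Kbtbd8 estimate was 0.74. The filter on dim genes left out Klhl41 and Klhl29, which then have no value, and the F-test has no fit of groups alone. Where an array is left out, the remaining array of its group was given the spread of the others. Dim probe sets near background limit what can be seen for 17 members.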

Other observations

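Over the 10 arrays, the genes outside the family whose pattern was most like that of Klhl41 were Myoz2 (Pearson r = 0.97, Spearman rho = 0.96), Camsap3 (0.96 and 0.85), 5330411J11Rik (0.96 and 0.95), Smpdl3b (0.96 and 0.99) and Slu7 (0.95 and 0.84). They are the highest of 18135 genes compared, the points share arrays, normalization and the siSocs3 difference, and the values are a description. Myoz2 encodes a protein of the muscle Z-disc, and whether muscle genes as a set follow Klhl41 was not tested.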
